A study of Mus musculus with 25 samples.

Results

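The cells described here were lung cells rich in Hhip mRNA, taken from 5 single-cell libraries of lineage-negative mouse lung cells. Members were chosen by their measured counts: a cell was a Hhip cell when it held at least 5 Hhip unique molecular identifiers (UMIs, each standing for 1 captured mRNA molecule), fewer than 2 UMIs of Cthrc1 and of Cox4i2, and none of Upk3b or Cdh5, which keeps out Cthrc1-rich fibroblasts, pericytes, mesothelial cells and endothelial cells. Of 12059 cells with 200 to 7500 detected genes and at most 20% mitochondrial UMIs, 887 met the rule. In the study, mice carrying a tamoxifen-inducible Cre recombinase under the Col1a1 promoter and floxed Fas alleles received bleomycin into the airways, which causes lung fibrosis that later resolves. They were then injected with tamoxifen, which deletes Fas, the death receptor of the extrinsic apoptosis pathway, in Col1a1-expressing cells (Fas-/-; FasDel in the labels), or with corn oil (Fas+/+; WT in the labels), and lungs were taken 3 or 6 weeks after bleomycin. Naive animals (Control in the labels) had the same Cre and floxed alleles and no bleomycin. Lung cells negative for the leukocyte marker CD45, the endothelial marker CD31 and the epithelial marker EpCAM were sorted for 20 bulk RNA-seq libraries, 4 in each of 5 groups, and for 1 single-cell library per group from pooled mice.

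Tamoxifen was given to the Fas-/- animals alone, so deletion of Fas and exposure to tamoxifen cannot be told apart. Recombination is limited to cells in which the Col1a1 promoter was active, and the share of Hhip cells that lost Fas was not analysed here. Fas mRNA is counted over the whole gene and the deleted exon is not separated, so its level does not check the deletion. In bulk, Fas stood at 23.9, 21.1, 21.9 and 21.4 CPM (counts-per-million, of read counts in bulk and of UMI counts in single cells) in the naive libraries. It stood at 57.7, 33.9, 34.1 and 38.3 CPM in Fas+/+ and at 42.3, 35.3, 34.4 and 64.8 CPM in Fas-/- at 3 weeks. At 6 weeks it stood at 26.1, 32.6, 39.7 and 27.1 CPM in Fas+/+ and at 35.5, 46.5, 39.0 and 40.2 CPM in Fas-/-. The genotypes overlapped at both times, with log2 differences of 0.11 (adjusted p = 0.91) and 0.36 (adjusted p = 0.719, edgeR quasi-likelihood test with Benjamini-Hochberg adjustment). Within the Hhip cells Fas was at 67.8 CPM in naive, 71.3 and 40.5 in Fas+/+ and Fas-/- at 3 weeks, and 71.0 and 66.2 at 6 weeks. The study's methods describe replicates as individual animals, while the labels do not name the animal behind each bulk library.

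Hhip encodes hedgehog-interacting protein, a membrane and secreted protein that binds hedgehog ligands and limits their signal. Hedgehog ligands are made mainly by epithelium in the lung; in the receiving mesenchyme they bind Ptch1, release Smo and activate Gli transcription factors, and Gli1, Ptch1 and Hhip are themselves classical targets of the pathway. In mouse lung, fibroblasts around conducting airways and alveolar ducts with high Hhip are known as peribronchial or ductal myofibroblasts. Genes associated with them include Aspn (asporin, a small leucine-rich extracellular protein), Lgr6 (a receptor for R-spondins, which amplify Wnt signals), Fgf18 (a growth factor of lung development and alveolar formation), Pappa2 (a protease that releases insulin-like growth factors from their binding proteins) and Enpp2 (autotaxin, which makes the lipid signal lysophosphatidic acid).

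Hhip lies on the minus strand of mouse chromosome 8 at chr8:79965851-80058006 in GRCm38, and Aspn on the plus strand at chr13:49544443-49567565. The promoters of these genes are shown because both mRNAs mark the cells below and were lower in bulk 3 weeks after bleomycin. Each sequence is from RefSeq on GRCm38.p6, 5′ to 3′ on the gene's strand, and runs from 250 bases before the annotated start to 50 bases after it (chr8:80057959-80058258 for Hhip, chr13:49544193-49544492 for Aspn). Capitals mark matches to the motifs named next.
Hhip: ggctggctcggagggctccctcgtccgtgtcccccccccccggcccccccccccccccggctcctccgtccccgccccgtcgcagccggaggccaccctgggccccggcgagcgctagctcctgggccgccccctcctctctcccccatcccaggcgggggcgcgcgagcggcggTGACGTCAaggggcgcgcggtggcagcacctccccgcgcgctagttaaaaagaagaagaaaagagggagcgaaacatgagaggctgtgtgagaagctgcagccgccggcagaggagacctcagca
Aspn: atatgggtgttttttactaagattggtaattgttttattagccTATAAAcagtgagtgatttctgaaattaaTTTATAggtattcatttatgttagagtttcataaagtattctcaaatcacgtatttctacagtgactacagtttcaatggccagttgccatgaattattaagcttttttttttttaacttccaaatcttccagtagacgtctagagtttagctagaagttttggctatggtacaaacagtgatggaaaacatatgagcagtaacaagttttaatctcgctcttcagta
The Hhip window is 73.7% G and C and the Aspn window 31%. The motifs searched on both strands were GACCACCCA (bound by Gli factors), TGACGTCA (the cyclic AMP response element) and TATAAA (the core promoter TATA element). The Hhip window holds TGACGTCA, as 1.79% of 32851 mouse promoters do. The Aspn window holds TATAAA on each strand, an element found in 13.6% of promoters. These matches begin at bases 44 and 73 of the window, whose first 250 bases precede the annotated start. Whether either acts as a core promoter element was not tested. GACCACCCA, present in 0.253% of promoters, is in none of the 11 promoters found for 13 genes typical of the Hhip cells (the 6 markers and 10 genes named below, with overlap), and this says only that these letters are absent from these windows.

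Hhip cells were found in every library. The naive library held 65 among 603 kept cells (10.8%, exact Clopper-Pearson 95% interval 8.42 to 13.5%). At 3 weeks there were 200 among 2664 in Fas+/+ (7.51%, 6.54 to 8.57%) and 127 among 2608 in Fas-/- (4.87%, 4.08 to 5.77%). At 6 weeks there were 179 among 3240 in Fas+/+ (5.52%, 4.76 to 6.37%) and 316 among 2944 in Fas-/- (10.7%, 9.64 to 11.9%). With 1 library per condition no share can be tested between conditions, and the intervals cover counting error only. The denominators differ in make-up: cells with endothelial transcripts numbered 1179 in the 6-week Fas+/+ library and 9 to 229 in the others. As a share of Col1a2-positive mesenchymal cells the values were 12.6% in naive, 10.8% and 6.99% in Fas+/+ and Fas-/- at 3 weeks, and 13.1% and 14.7% at 6 weeks, so the order of the libraries depends on the denominator. Hhip cells were deeper than the remaining kept cells, with a median of 11687 against 7094 UMIs, and their median depth ranged from 7030 UMIs in naive to 16211 in 6-week Fas+/+. A fixed minimum of Hhip UMIs is passed more easily by a deep cell. With each cell thinned to 3000 UMIs and a minimum of 2 Hhip UMIs, the shares were 11.8% in naive, 8.64% and 8.62% in Fas+/+ and Fas-/- at 3 weeks, and 5.96% and 10.4% at 6 weeks. In this setting, which changed the depth, the minimum and the cells kept, the 3-week values were close and the 6-week values lay apart, with no test. Of the 887 barcodes 865 were distinct, and 17 occurred in more than 1 library.

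The threshold cut through a continuous range of Hhip counts. Just outside it 225 kept cells that met the other criteria held 3 UMIs and 155 held 4, and just inside it 116 members held 5 and 89 held 6. The members together held 76.1% of the 25040 Hhip UMIs in all kept cells, with 93.9% of them in naive and 62.7 to 82.1% in the bleomycin libraries. The remaining 23.9% lay in cells below the threshold or removed by the other criteria.

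The name of ductal myofibroblasts held for a fraction of the members. For each member the UMIs of the other 5 markers (Aspn, Lgr6, Fgf18, Pappa2, Enpp2) were compared with those of 12 alveolar fibroblast genes (among them Npnt, Tcf21, Col13a1 and Limch1). The markers had the greater sum in 400 members, called marker-high here, and the alveolar genes in 487, called alveolar-high. This division was made after the values were seen, so levels on its sides are descriptions with no test, and 47 cells lay within 2-fold of the dividing line. Marker-high cells made up 86.2% of the naive members, 50% and 52.0% of the Fas+/+ and Fas-/- members at 3 weeks, and 39.1% and 34.2% at 6 weeks. They held a median of 29 Hhip UMIs at a median depth of 7507 UMIs, against 8 Hhip UMIs at 16571 UMIs in alveolar-high cells. The share on the marker-high side was larger at higher Hhip counts: 8.62% of members with 5 Hhip UMIs, 24.2% of those with 9 to 12, 77.3% of those with 21 to 40 and 95% of those with 41 to 161. Cells just outside the threshold, at 4 Hhip UMIs, would have been marker-high in 11.0%. Because the alveolar-high members had more alveolar fibroblast than ductal transcripts, the members as a whole are called Hhip cells below.

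**Figure D1:**
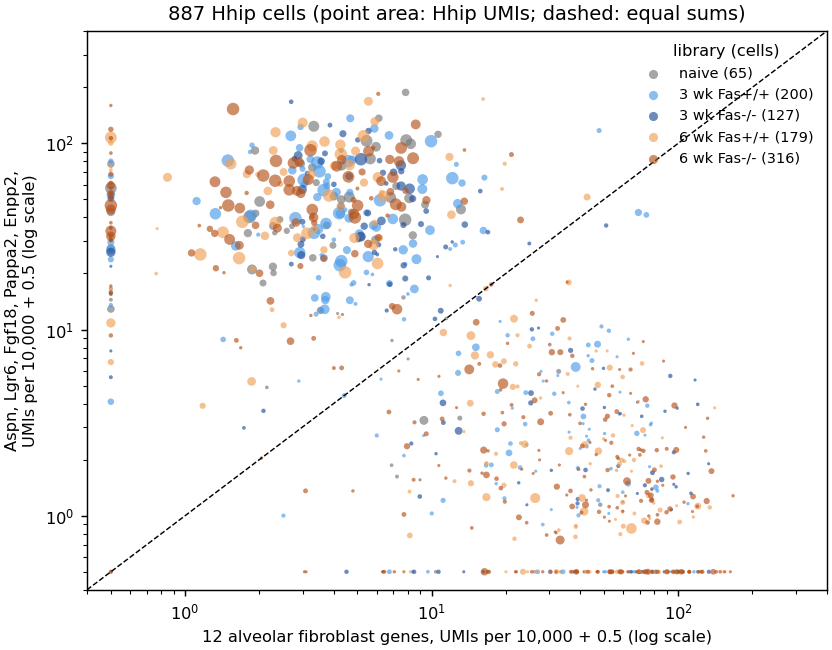
Each point is 1 Hhip cell, placed by its summed alveolar fibroblast genes (x axis, 12 genes) and its summed Aspn, Lgr6, Fgf18, Pappa2 and Enpp2 (y axis), both scaled to an equal number of UMIs per cell, with a small constant added, on log scales; colour gives the library, point area the Hhip UMIs, and the dashed line equal sums. The 400 marker-high cells above the line include most of the large points, and the naive library has 9 of its 65 cells below it.

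As shares of all kept cells, the 2 sides had different orders across the libraries. Marker-high cells were 9.29% of kept cells in naive (95% interval 7.09 to 11.9%), 3.75% in Fas+/+ and 2.53% in Fas-/- at 3 weeks, and 2.16% (1.69 to 2.72%) and 3.67% (3.02 to 4.41%) at 6 weeks. Their naive interval lay above those of the 4 bleomycin libraries. Alveolar-high cells were 1.49% in naive (0.685 to 2.81%), 3.75% and 2.34% at 3 weeks, and 3.36% and 7.07% (6.17 to 8.05%) in Fas+/+ and Fas-/- at 6 weeks. The 6-week Fas-/- library had the highest alveolar-high share and the naive library the lowest. As shares of Col1a2-positive mesenchymal cells, marker-high cells were 10.5% in naive, 4.92% and 3.41% in Fas+/+ and Fas-/- at 3 weeks and 4.88% and 4.79% at 6 weeks, so the 6-week libraries were close with this denominator. Alveolar-high cells were 2.02, 5.85, 3.58, 8.18 and 9.93% in the same order. With each cell thinned to 3000 UMIs and a minimum of 2 Hhip UMIs, the marker-high shares were 10.5, 4.43, 3.09, 2.74 and 4.19% and the alveolar-high shares 1.22, 4.20, 5.53, 3.22 and 6.17%. The order of the genotypes on the alveolar-high side at 3 weeks thus turned in this setting. It changed the depth, the Hhip minimum and the cells kept together, so the turn cannot be put down to 1 of them.

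**Figure D2:**
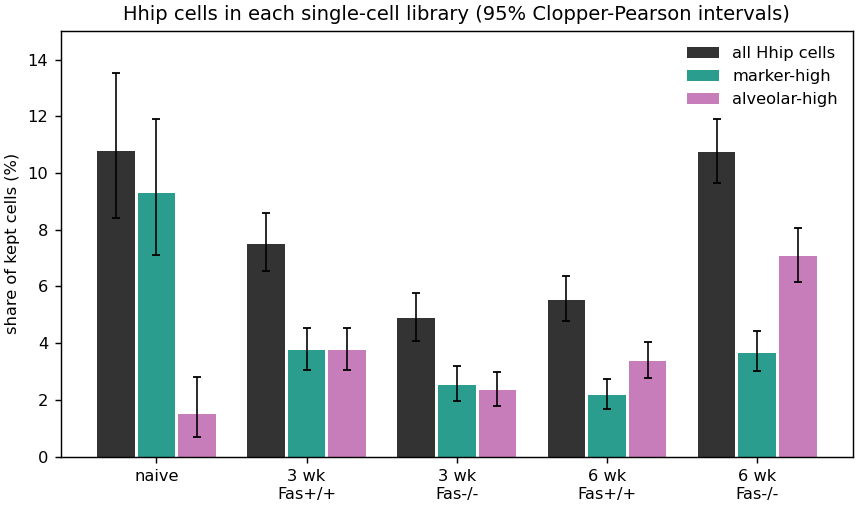
Shares of kept cells (%) in each single-cell library for all Hhip cells, marker-high members and alveolar-high members; bars are shares and error bars exact Clopper-Pearson 95% intervals, which cover counting error only. The naive library had the highest marker-high share (9.29%) and the 6-week Fas-/- library the highest alveolar-high share (7.07%).

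The alveolar-high side can also be read from alveolar fibroblasts defined with no Hhip criterion (Npnt at 5 or more UMIs and Tcf21 at 1 or more, with the same criteria on Cthrc1, Cox4i2, Upk3b and Cdh5). Hhip was at 31.9 CPM in the 233 such cells of the naive library (exact Poisson 95% interval 25.5 to 39.5). At 3 weeks it was at 92.4 (87.0 to 98.1) in Fas+/+ and 111 (103 to 119) in Fas-/-, and at 6 weeks at 141 in each genotype. All 4 bleomycin libraries stood above naive in this population. Without the top 5 cells of each library the levels were 19.5 CPM in naive and 80.7 to 130 CPM after bleomycin. With each cell thinned to 3000 UMIs, 7.02% of naive cells and 18.3, 21.2, 20.6 and 26.3% of cells in the bleomycin libraries, in the same order, had at least 1 Hhip UMI. Endothelial cells, which should lack Hhip, gave 0, 1.10, 5.56, 1.89 and 2.73% at the same thinned depth, from median depths of 3594 to 5718 UMIs against 8329 to 15221 UMIs in the alveolar fibroblasts. Their Hhip level was 0 in naive, which held 9 of them, and 14.9, 36.3, 31.7 and 11.9 CPM in the bleomycin libraries. The part of background RNA in the alveolar fibroblast levels was not tested. These values come from 1 library per condition and carry no test.

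The levels of the 6 markers on the 2 sides were as follows. Hhip, which the rule used, was at 3813 CPM in marker-high and 597 in alveolar-high members. Aspn was at 2105 and 118, Enpp2 at 1989 and 99.0, and Fgf18 at 301 and 3.48. Pappa2 was at 232 and 3.01, and Lgr6 at 120 and 1.51. In Npnt cells, chosen with fewer than 2 Hhip UMIs, Lgr6, Fgf18 and Pappa2 were at 1.19, 1.87 and 1.42. The division used these markers, so their levels on its sides are set by it. At 3000 UMIs a cell, Aspn was detected in 86.6% of marker-high, 19% of alveolar-high and 7.89% of Npnt cells, Enpp2 in 93.8, 21.1 and 13%, and Pappa2 in 26.6, 1.25 and 0.324%. The unthinned shares for Pappa2 were 35, 3.29 and 0.863%. The alveolar gene Tcf21, a transcription factor of lung lipofibroblasts and alveolar fibroblasts, had the opposite order, in 3.36% of marker-high and 61.2% of alveolar-high cells. Pdgfra, the receptor for platelet-derived growth factor A, was detected in 16.5 and 74.7%. It was not among the alveolar genes of the division. It belongs to the list of further genes associated with ductal myofibroblasts used below, and so went against that list here.

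Further genes higher on the marker-high side in each of the 5 libraries included Scx (scleraxis, a transcription factor of tendon; 157 against 0.928 CPM), Tgfbi (a TGF-beta-induced matrix protein; 528 against 21.4), Mustn1 (a small nuclear protein of muscle and skeletal tissue; 1630 against 59.4) and P2ry14 (a receptor for UDP-glucose; 674 against 15.4). Ednrb, an endothelin receptor, was at 160 against 3.59, Gja1, the gap junction protein connexin 43, at 220 against 7.65, and Agt, angiotensinogen, at 67.8 against 1.39. Tcap, a sarcomere protein, was at 48.0 against 1.28. On the alveolar-high side the leading genes included Meox2, a mesenchymal homeobox factor (158 against 4.39 in marker-high cells), Gpc3, a heparan sulfate proteoglycan (699 against 28.3), and Hsd11b1, which regenerates active glucocorticoid (837 against 39.5). These genes were chosen after their values were seen.

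Within the marker-high side 63 cells held at least 5 Myh11 UMIs, Myh11 being the smooth muscle myosin heavy chain. Acta2 (smooth muscle alpha actin) was at 7669 CPM in them. Cnn1 (calponin) was at 874 against 13.4 in the other marker-high cells, Actc1 (cardiac alpha actin) at 1314 against 10.2, and Actg2 (enteric gamma actin) at 1238 against 90.8. Each of these was higher in all 5 libraries. Lum, which encodes the collagen-binding proteoglycan lumican, went the other way, at 609 against 1336. Over 357 marker-high cells thinned to the same depth, Lum and Cnn1 counts had a Spearman correlation of -0.43 and Dcn and Lum of 0.54, given as descriptions across cells that share libraries. The marker-high side therefore held cells of high and of low contractile gene level.

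Defining markers of the sorted-out lineages were at or near 0 in Hhip cells: Ptprc (CD45) was at 0, Epcam at 0.0815 and Pecam1 (CD31) at 9.05 CPM. Pecam1 was at 47.0 in the 3-week Fas-/- library, in 39 cells. Summed over lists of 10 genes each, endothelial genes were at 105 (from 60.5 in naive to 130 in 3-week Fas-/-; Ramp2 the most abundant, Cdh5 at 0 by the rule), epithelial genes at 58.8 (20.2 to 81.0; Scgb1a1 the most abundant, Lamp3 at 0) and immune genes at 22.2 (1.83 to 37.8; Lyz2 the most abundant, Ptprc at 0). A list of 5 red-cell genes, led by Hbb-bs, was at 192.5 in the naive members and 2.61 to 22.1 in the bleomycin libraries. Pericyte genes (10, led by Kcnj8) summed to 361, mesothelial genes (8, led by Upk1b, with Upk3b and Calb2 at 0) to 74.5, and vascular smooth muscle genes (10, led by Myh11, with Rergl at 0) to 455 overall and 1212 on the marker-high side. The part of these transcripts in the levels below was not tested.

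Hhip cells differed from smooth muscle cells by a low contractile program beside high ductal marker genes. UMIs were summed per library for Hhip cells and for 406 Myh11 cells (Myh11 at 5 or more UMIs, Hhip under 2), and genes used by any rule were not tested. In the comparison, 38.7% of the 11570 genes tested passed (adjusted p at or under 0.05, edgeR quasi-likelihood test on 5 libraries with library as a block), 20.2% higher and 18.5% lower in Hhip cells. All 19 contractile genes tested were lower (median log2 fold change -3.31, against 0.01 over all genes). Acta2 was lower by a log2 fold change of -4.27 (adjusted p = 2.75e-11), Tagln by -3.26 and Myocd, the master coactivator of smooth muscle genes, by -3.31. Of the 5 markers tested 4 were higher: Aspn by 1.34 ± 0.39 (SE; adjusted p = 0.01), Enpp2 by 1.59 ± 0.23 (adjusted p = 8.25e-06), Fgf18 by 3.44 ± 0.27 (adjusted p = 1.75e-09) and Pappa2 by 5.04 ± 0.43 (adjusted p = 7.56e-09). Lgr6 was higher in Myh11 cells, at -1.34 ± 0.18 (adjusted p = 5.08e-06), and so was Mustn1 (-1.67, adjusted p = 6.09e-05). The 2 groups were cut from the same libraries by gene levels, so these tests say in which direction genes differ between the groups so defined and are not independent of that choice.

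Some genes of signalling pathways also differed from Myh11 cells. Wnt5a, a non-canonical Wnt ligand, was higher by 4.90 on the log2 scale, the secreted Wnt antagonist Sfrp1 by 5.24, and Wif1, Wnt inhibitory factor 1, by 3.92. Lgr5, a stem cell receptor for R-spondins, was at 28.1 CPM on average over the libraries in Hhip cells and 0 in Myh11 cells, and Bmp7, a bone morphogenetic protein, at 21.3 and 0. Fgf10, the mesenchymal growth factor for lung epithelium, was higher by 5.71 and Lpar1, a receptor for lysophosphatidic acid, by 3.62. In the other direction, P2rx1, an ATP-gated channel of smooth muscle, stood at 0.418 against 166, and Sost, sclerostin, at 0.0785 against 145. Of 9 small leucine-rich proteoglycan genes all 9 were higher (median 1.28), among them Lum by 4.21 and Dcn (decorin) by 3.53. Lists of other fibroblasts were higher too: 8 of 10 alveolar fibroblast genes (1 lower, median 2.03) and 10 of 11 adventitial fibroblast genes (0 lower, median 3.89). The sums hold marker-high and alveolar-high members together, and the part of each side in these differences was not tested.

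Profibrotic matrix genes were lower in Hhip cells than in Cthrc1-rich fibroblasts, a population known from fibrotic lung. Against 218 Cthrc1 cells (4 libraries, since naive held under 10 of them) 27.9% of genes passed, 14.1% higher and 13.8% lower (1627 and 1596 genes). The counts were 895 and 756 without the 6-week Fas-/- library and 966 and 860 without the 6-week Fas+/+ library. All 15 profibrotic genes tested were lower in Hhip cells (median log2 fold change -1.73, against 0.02 over all genes). Members held fewer than 2 Cthrc1 UMIs by the rule and Cthrc1 cells at least 5, which bears on this direction. Of the same 15 genes 9 were higher and 1 lower in Hhip cells than in Myh11 cells (median 1.27), and 4 were higher and 3 lower than in Npnt cells (median 0.29). The list summed to 16865 CPM in Hhip, 15037 in Npnt and 62130 in Cthrc1 cells. Postn, periostin, was lower by -4.38, Spp1, osteopontin, by -5.90, Col1a1 by -2.14 and Tnc, tenascin C, by -1.69, all as log2 fold changes. Thbs4, thrombospondin 4, stood at 0.742 against 652 CPM and Grem1, a BMP antagonist, at 6.17 against 423. These levels are means over 5 libraries, naive included, in Hhip cells and over 4 in Cthrc1 cells. All 5 markers tested were higher in Hhip cells, from 1.71 ± 0.46 for Aspn (adjusted p = 0.00782, higher in 3 of 4 libraries) to 5.43 ± 0.40 for Pappa2 (adjusted p = 7.97e-09). Cdh4, a cadherin, stood at 93.3 against 0.174 and Ednrb at 79.5 against 0.180, again as means with naive in Hhip cells and without it in Cthrc1 cells. Of 19 contractile genes 8 were higher and 3 lower (median 0.58), with Acta2 at a log2 fold change of -0.58 (adjusted p = 0.0825). Of 9 small leucine-rich proteoglycan genes 5 were higher and 3 lower (median 0.89), with Lum lower (-1.11, adjusted p = 0.0488). Of 12 further genes associated with ductal myofibroblasts 8 were higher and 2 lower (median 1.59). Of 10 cell cycle genes 7 were lower and none higher (median -1.64). Fas was higher by 0.63 ± 0.13 (adjusted p = 0.0011).

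Against 2550 Npnt cells, the alveolar fibroblasts with fewer than 2 Hhip UMIs, 17.4% of genes passed, 8.72% higher and 8.63% lower. All 5 markers tested were higher in Hhip cells in each of the 5 libraries, Aspn by 4.41 ± 0.43 (adjusted p = 3.49e-07), Enpp2 by 3.83 ± 0.24 (adjusted p = 4.55e-10) and Fgf18 by 5.55 ± 0.21 (adjusted p = 3.34e-13). Of 12 further genes associated with ductal myofibroblasts, 10 were higher and 1 lower (median 3.64, against -0.02 over all genes). Sbspon, a thrombospondin-repeat matrix gene, stood at 38.2 against 0.0376 CPM, and Tgfbi at 239 against 3.06. Contractile genes were higher in 13 and lower in 2 of 19 (median 1.37), with Acta2 at 1.16 (adjusted p = 0.000829). All 10 alveolar fibroblast genes tested were lower (median -1.55). Npnt cells were chosen by Npnt and Tcf21, both of this list and not tested, which bears on this direction. More Hhip cells lay on the alveolar-high side than not. Slc7a10, an amino acid transporter, stood at 29.1 against 239 and Spp1 at 137 against 1477 (adjusted p = 0.000498). Of 12 immediate early genes 4 were higher (Egr1, Klf4, Junb and Ier2; median 0.57), and of 18 Fas and apoptosis genes none passed, with Fas at -0.08 ± 0.09 (adjusted p = 0.676).

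**Figure D3:**
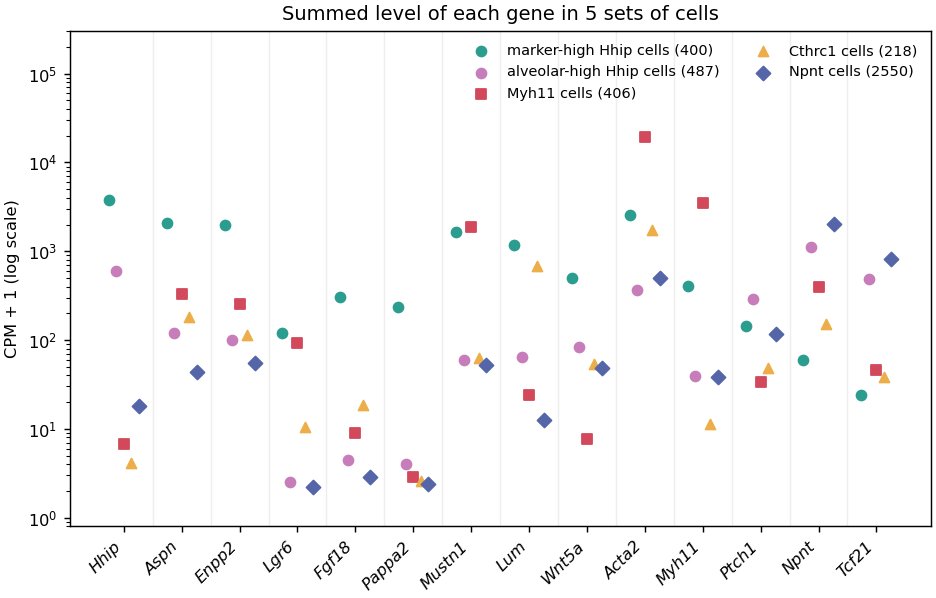
Levels of 14 genes (CPM plus 1, log scale, all libraries summed) in marker-high and alveolar-high Hhip cells and in Myh11, Cthrc1 and Npnt cells; each point is 1 cell set. Hhip, Aspn, Enpp2, Lgr6, Fgf18 and Pappa2 are highest in marker-high cells, with Lgr6 in Myh11 cells close behind (92.4 against 120), and Ptch1 is higher on the alveolar-high side (289) than on the marker-high side (143).

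Hedgehog pathway genes were compared in the same fit. The receptor and target Ptch1 averaged 237.5 CPM over the 5 libraries in Hhip cells, against 31.9 in Myh11, 65.8 in Cthrc1 and 115.1 in Npnt cells. The means of Cthrc1 cells in this paragraph were taken without naive. Its log2 fold changes were 2.86 ± 0.13, 2.09 ± 0.12 and 1.05 ± 0.09 (adjusted p = 4.85e-13, 5.22e-10 and 6.93e-08). The target and transcription factor Gli1 averaged 27.4, against 6.67, 12.8 and 10.3, and was higher by 1.89, 1.04 and 1.29. Foxf1, a forkhead factor of lung mesenchyme responsive to hedgehog, was higher by 1.04, 1.61 and 1.76. Of 13 pathway genes tested (without Hhip), 10, 6 and 5 were higher and 0, 1 and 0 lower in the 3 comparisons, beside 20.2, 14.1 and 8.72% of all genes higher. Within the Hhip cells Ptch1 was at 143 in marker-high and 289 in alveolar-high members and Gli1 at 20.03 and 28.8, while Foxf1, like Hhip, was higher on the marker-high side (175 and 71.9). The ligand genes Shh and Ihh were at 0 in marker-high cells.

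Other pathways of the markers were examined by fixed lists. Over all genes tested, 20.2, 14.1 and 8.72% were higher and 18.5, 13.8 and 8.63% lower in the comparisons with Myh11, Cthrc1 and Npnt cells, and the counts below stand beside these shares. In the insulin-like growth factor list, on which Pappa2 acts, 9, 4 and 7 of 13 genes were higher and 1, 3 and 0 lower than in Myh11, Cthrc1 and Npnt cells. Igfbp5, a binding protein cleaved by Pappa2, was higher in all 3 comparisons, by 1.20, 1.66 and 3.64. Igf1 was higher by 4.18 than in Myh11 cells and by 1.18 than in Npnt cells. Of 22 Wnt and R-spondin genes 13, 8 and 9 were higher and 4, 7 and 2 lower, with Wif1 higher in all 3 (3.92, 5.78 and 7.14) and Dkk2, another Wnt antagonist, higher by 4.87, lower by -2.90 and higher by 1.99. Of 7 lysophosphatidic acid genes 4, 4 and 1 were higher and 0, 0 and 2 lower. Of 16 genes of the fibroblast and platelet-derived growth factor families, 10, 8 and 5 were higher and 4, 8 and 4 lower. Among them Pdgfc was lower than in Cthrc1 cells (-2.57) and higher than in Npnt cells (2.56). Elastic fibre genes were higher in 13, 4 and 4 and lower in 0, 8 and 4 of 19. The BMP and TGF-beta list split evenly against Myh11 and Cthrc1 cells (7 higher and 7 lower of 22 in each). Against Npnt cells 7 of its genes were higher and 4 lower.

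By a fixed rule (at least 50 UMIs and 20 CPM in Hhip cells, and at least 4 times the level of each of the 3 other groups and of all remaining kept cells, with 1 CPM added to each level), 10 genes were typical of Hhip cells: Hhip, Pappa2, Cyp2e1, Wif1, Agt, Cacna2d3, Fgf18, Crispld1, Pde10a and Kcnj8. The place of Hhip among them was fixed by the choice of the cells. Cyp2e1, a cytochrome P450 enzyme, was at 137 CPM against 8.19 in all remaining kept cells, with 377 in marker-high and 35.2 in alveolar-high members. Wif1 was at 70.1 against 5.23 and Pappa2 at 71.1 against 3.30 in the remaining cells. Kcnj8, a potassium channel subunit better known from pericytes, was at 171. All 10 had a higher level on the marker-high than on the alveolar-high side, which for Pappa2 and Fgf18 was set by the division itself.

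Between conditions the members were compared as sums with no test, since each condition had 1 library. Between genotypes, among genes with at least 50 UMIs in the 2 sums, 0.635% were more than 2-fold up and 0.864% more than 2-fold down in the Fas-/- library at 3 weeks (7869 genes), and 0.718% and 0.558% at 6 weeks (10027 genes). Against naive the shares of genes higher and lower were 4.79 and 3.07% (3-week Fas+/+), 5.38 and 3.33% (3-week Fas-/-), 7 and 4.26% (6-week Fas+/+) and 7.41 and 6.05% (6-week Fas-/-), and these 4 comparisons share the naive library. Over all members the median log2 ratio of the 6 markers to naive was -0.93, -0.94, -1.13 and -1.41 in that order, which moved with the marker-high share of the members (86.2% in naive, 34.2 to 52.0% in the bleomycin libraries). Among marker-high members alone the medians were 0.04, -0.09, 0.20 and 0.02. Marker-high members were chosen by these markers, which bears on that level. The comparisons below are given for marker-high members.

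In marker-high members Hhip was at 5401 CPM in naive, 4953 and 3372 in Fas+/+ and Fas-/- at 3 weeks, and 3210 and 3140 at 6 weeks. Aspn was at 2720, 1998, 1873, 2598 and 1716 in the same order, and Enpp2 at 2056, 2157, 2095, 1701 and 2024. These genes varied by less than 2-fold over the libraries. Pappa2 was lowest in naive, at 39.5 (95% Poisson interval 22.1 to 65.2), and stood at 191, 101, 279 and 330 after bleomycin. Fgf18 was at 242 in naive and 245, 210, 340 and 359 after bleomycin, and Lgr6 at 94.9, 142, 113, 140 and 100.5. All 4 bleomycin libraries had a Pappa2 level above the naive interval, at both times and in both genotypes.

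Over all genes measured in marker-high members (at least 50 UMIs in the 2 sums), 2.39% and 3.03% were more than 2-fold above naive and 1.95% and 2.76% below in 3-week Fas+/+ and Fas-/-, and 4.28% and 5.96% above and 2.33% and 2.97% below at 6 weeks. Of 16 profibrotic genes 10 were measured at 3 weeks and 14 at 6 weeks. A gene near 0 in naive was measured only where it was high after bleomycin, so the list is given by its sum and by single genes and not by its count. Summed over the 16 genes, the list was at 14440 CPM in naive. It was lower at 3 weeks (8660 in Fas+/+ and 12138 in Fas-/-) and higher at 6 weeks (18104 and 21313). Tnc was at 73.8 CPM in naive, 256 and 197 at 3 weeks and 433 and 485 at 6 weeks. Eln, elastin, was at 941 in naive, 726 and 1639 in Fas+/+ and Fas-/- at 3 weeks and 2872 and 2313 at 6 weeks. Sfrp1 was at 21.1 in naive (8 UMIs in 3 cells), 193 and 284 at 3 weeks and 747 and 642 at 6 weeks. Fst, follistatin, an activin antagonist, was at 7.91 in naive (3 UMIs), 27.6 and 41.9 at 3 weeks and 246 and 217 at 6 weeks. Spp1 was not detected in naive marker-high cells (0 UMIs, interval up to 9.72), and stood at 13.8 and 17.3 at 3 weeks and 79.97 and 105 at 6 weeks. In endothelial cells of the same libraries, which should lack it, Spp1 was at 24.2 and 16.7 at 3 weeks and 150 and 258 at 6 weeks. At 3000 UMIs a cell, 26.6% and 31.2% of marker-high and 36.8% and 42.1% of endothelial cells of the 6-week Fas+/+ and Fas-/- libraries had a Spp1 UMI (median depths of 9306 and 10566 against 5657 and 4669 UMIs). Spp1 was thus less frequent in marker-high than in endothelial cells, and the part of background RNA in its level was not tested. By the same measure Sfrp1 was found in 51.6% and 49.5% of marker-high against 3.87% and 3.83% of endothelial cells, and Fst in 14.1% and 14% against 1.99% and 3.28%. Fbln5, fibulin 5, an elastic fibre assembly protein, was at 132 in naive (50 UMIs in 8 of 56 cells) and 12.9 to 22.6 after bleomycin. Naive marker-high cells also held 130 UMIs of Pi16 in 8 cells and 88 of Clec3b in 5, both genes of adventitial fibroblasts, and the part of such cells in the Fbln5 level was not tested. Of 12 immediate early genes, all measured, none was more than 2-fold above naive and 1, 1, 3 and 3 were more than 2-fold below (median log2 ratios of -0.52, -0.42, -0.75 and -0.65 in 3-week Fas+/+, 3-week Fas-/-, 6-week Fas+/+ and 6-week Fas-/-). In the alveolar-high members Spp1 reached 480 and 378 and Fn1, fibronectin, 3451 and 2989 at 6 weeks, so sums over all members carry more of both genes than the marker-high cells, where Fn1 was at 165 and 112.

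**Figure D4:**
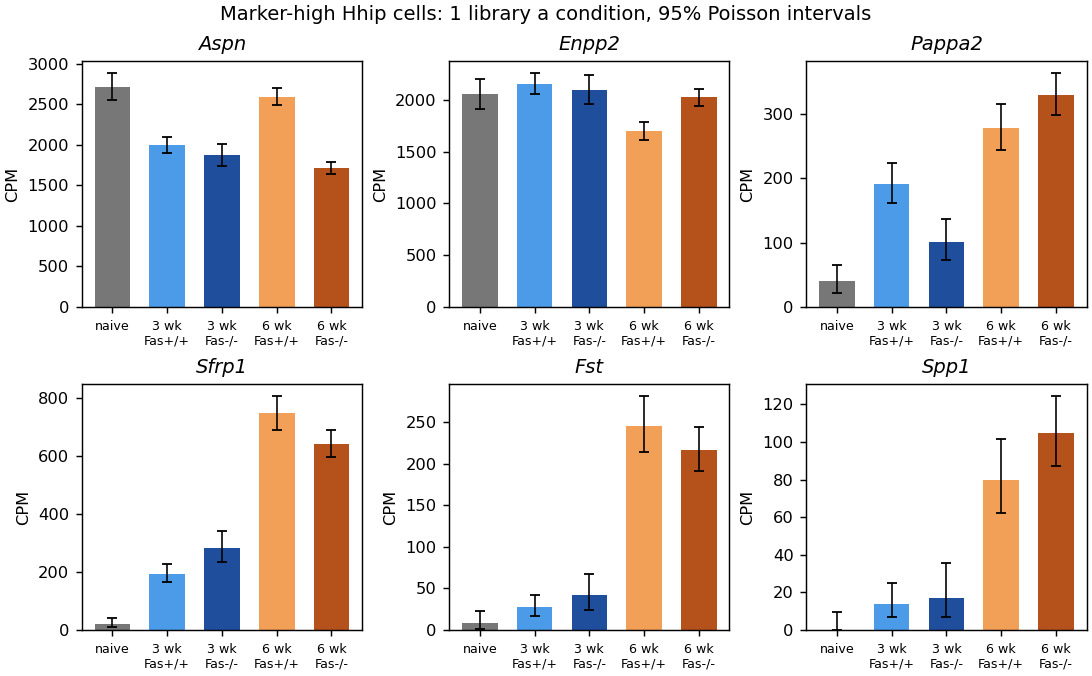
Levels of Aspn, Enpp2, Pappa2, Sfrp1, Fst and Spp1 in marker-high Hhip cells of each library (CPM, 1 library per condition); error bars are exact Poisson 95% intervals, which cover counting error only. Aspn and Enpp2 lie within 2-fold across libraries, whereas Pappa2, Sfrp1, Fst and Spp1 are lowest in naive; Spp1 stood lower than in endothelial cells of the same 6-week libraries (150 and 258 CPM).

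Between genotypes, the marker-high members differed in a smaller share of genes than they did from naive, and several of the largest ratios rested on few cells. At 3 weeks 1.26% of 3894 genes were more than 2-fold higher and 1.39% lower in Fas-/-, and at 6 weeks 1.1% and 0.867% of 5995. None of the 6 markers was above its Fas+/+ level at 3 weeks (median log2 ratio -0.26) and the median was 0.02 at 6 weeks. Timp1, an inhibitor of matrix metalloproteinases, was at 515 CPM in Fas-/- and 57.8 in Fas+/+ at 3 weeks (log2 ratio 3.13), in 21 cells of each, and at 320 and 236 at 6 weeks. Saa3 (45 UMIs in 2 cells of Fas-/-, and 9 cells of Fas+/+), Cxcl14 (76 UMIs in 9 cells, and 15), Dkk2 (11 cells and 6) and Tnnt2 (3 cells in each) had the next highest ratios in Fas-/- at 3 weeks, by log2 ratios of 2.80, 2.60, 2.56 and 2.24. On the lower side at 3 weeks were Gstp1, a glutathione transferase (-2.78, 8 UMIs in 6 cells of Fas-/- against 120 in 56 cells of Fas+/+), Klf10, a TGF-beta-induced factor (-1.96, 7 UMIs in 7 cells against 60 in 38 cells), Mmp3, stromelysin 1 (-2.12, 13 UMIs in 10 cells against 118 in 20 cells), Cxcl10 (-3.67) and Scgb1a1 (-2.51). At 6 weeks Ptpn5, a protein tyrosine phosphatase, was at 61.8 against 8.23 CPM (in 43 and 6 cells), and Il33, an alarmin cytokine, had a log2 ratio of 3.37 (7 and 5 cells). Inmt (-2.07), Stmn1 (-2.27), Nnat (-2.29) and Gm26870 (-2.63) were lower in Fas-/- at 6 weeks, and Myoc was not detected against 60 UMIs in 2 cells of Fas+/+.

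The bulk libraries, which the rule did not use, gave a replicated view of the same genes in the whole sorted population. Bulk depth ranged from 11819700 to 25189096 counted reads (median 20122870). A bulk level mixes all sorted cells, so fewer Hhip cells and less mRNA per Hhip cell cannot be told apart. Hhip stood at 314, 554, 481 and 569 CPM in the 4 naive libraries. At 3 weeks it stood at 207, 163, 137 and 228 CPM in Fas+/+ and 259, 248, 253 and 178 CPM in Fas-/-. At 6 weeks it stood at 338, 246, 297 and 304 CPM in Fas+/+ and 257, 239, 265 and 246 CPM in Fas-/-. All libraries of both 3-week groups and of 6-week Fas-/- lay below the lowest naive library (exact permutation p = 0.0286 each, two-sided, the smallest that 4 against 4 allows), and 6-week Fas+/+ overlapped naive (exact permutation p = 0.0571). The log2 fold changes against naive were -1.39 ± 0.18 (adjusted p = 2.11e-05), -1.03 (adjusted p = 0.000454), -0.70 (adjusted p = 0.0278) and -0.93 (adjusted p = 0.00494) in 3-week Fas+/+, 3-week Fas-/-, 6-week Fas+/+ and 6-week Fas-/-. The 6-week Fas+/+ call did not hold without naive replicate 2, 3 or 4, without replicate 2, 3 or 4 of its own group, or with replicate number as a block (adjusted p = 0.0541). The 4 comparisons share the naive libraries.

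At 3 weeks 4 of the 6 markers in Fas+/+ and 3 in Fas-/- were lower in bulk and 1 in each, Pappa2, was higher, while 41.3% of all 15773 genes passed in Fas+/+ and 32% in Fas-/-. Aspn stood at 51.8, 74.9, 81.7 and 89.4 CPM in naive, 41.9, 48.9, 36.1 and 55.2 in 3-week Fas+/+ and 42.8, 43.3, 45.8 and 22.6 in 3-week Fas-/-. It was lower by -0.71 (adjusted p = 0.00886) and -0.95 (adjusted p = 0.00202). Lgr6 was lower by -0.76 in both (adjusted p = 0.0107 and 0.0142), with every 3-week library below every naive library, and the call in Fas-/- did not hold with the 2 groups alone (adjusted p = 0.0565). Enpp2 stood at 266, 339, 281 and 410 CPM in naive, 222, 174, 173 and 306 in 3-week Fas+/+ and 257, 256, 252 and 150 in 3-week Fas-/-, with log2 fold changes of -0.57 (adjusted p = 0.0358) and -0.50 (adjusted p = 0.0718). Pappa2 stood at 16.7, 28.1, 24.8 and 38.7 CPM in naive, 19.9, 76.3, 75.0 and 92.6 in 3-week Fas+/+ and 60.7, 83.3, 59.2 and 22.2 in 3-week Fas-/-. It was higher by 1.28 (adjusted p = 0.0157) and 1.06 (adjusted p = 0.05), with overlapping groups in each case. The first call did not hold without naive replicate 1 or 3-week Fas+/+ replicate 4 (highest adjusted p = 0.0587 over 14 alternatives), and the second did not hold in 9 of 14 alternatives (highest adjusted p = 0.176). The Enpp2 call in 3-week Fas+/+ did not hold with the 2 groups alone (adjusted p = 0.0681), without naive replicate 2 or 4 or without replicate 2 or 3 of its own group (highest adjusted p = 0.121). Fgf18 did not pass in any comparison (log2 fold changes of -0.39, -0.16, 0.05 and -0.02 in the order used for Hhip).

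At 6 weeks, Hhip alone among the 6 markers passed against naive in the fit over all 20 libraries, where 5.31% of all genes passed in Fas+/+ and 6.48% in Fas-/- (3.57% and 3.66% higher, 1.74% and 2.81% lower). Aspn gave -0.66 (adjusted p = 0.0613) and -0.28 (adjusted p = 0.466). In 6-week Fas+/+ Aspn passed with DESeq2 (adjusted p = 0.0171), with the 2 groups alone (adjusted p = 0.0214), without naive replicate 1 (adjusted p = 0.0302) and without the 2 libraries highest in endothelial genes (adjusted p = 0.00824), where Lgr6 passed too (adjusted p = 0.0454). In the fit over all libraries Lgr6 gave -0.49 (adjusted p = 0.224) and -0.35 (adjusted p = 0.395). Enpp2 gave -0.02 and 0.01, and Pappa2 0.47 and 0.28. Of the 6 markers and 10 typical genes together, 13 genes in all, 8 and 6 passed at 3 weeks and 2 and 2 at 6 weeks in Fas+/+ and Fas-/-. The second gene at 6 weeks was Agt, which averaged 11.2 ± 4.72 CPM in naive (SD, n = 4), 3.74 ± 1.03 and 4.08 ± 1.15 at 3 weeks and 5.29 ± 1.14 and 5.29 ± 1.22 at 6 weeks, lower by -1.56, -1.45, -1.08 and -1.08 (adjusted p = 0.000721, 0.00186, 0.0414 and 0.0395). The 6-week Agt calls were lost in 10 of 14 alternatives in Fas+/+ (highest adjusted p = 0.147) and 8 of 14 in Fas-/- (highest adjusted p = 0.127), among them the replicate block, the 2 groups alone and leaving out naive replicate 2, 3 or 4, and the 3-week calls in none. Cyp2e1 fell to 18.4 ± 6.15 and 21.9 ± 4.55 CPM at 3 weeks from 41.6 ± 7.79 in naive (-1.17 and -0.93, adjusted p = 0.000455 and 0.00376), and stood at 40.6 ± 6.73 and 43.0 ± 7.66 at 6 weeks, with log2 fold changes of -0.04 and 0.05. Cacna2d3, a calcium channel subunit, was lower in 3-week Fas+/+ (-0.64, adjusted p = 0.01), and Wif1, Crispld1, Pde10a and Kcnj8 passed in no comparison. Against the background of 19.2% and 14.8% of genes lower at 3 weeks, 4 and 3 of the 6 markers were lower and 1 and 1 higher (median log2 fold change -0.64 and -0.63, beside 0.01 and 0.02 over all genes).

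Other lists moved with the markers at 3 weeks. In Fas+/+ and Fas-/-, 10 and 7 of 12 alveolar fibroblast genes were lower (medians -1.12 and -0.62), 7 and 7 of 10 pericyte genes (-0.83 and -0.74), 6 and 5 of 7 mesothelial genes (-1.03 and -0.76), 6 and 5 of 9 vascular smooth muscle genes (-0.999 and -0.81) and 7 and 8 of 12 adventitial fibroblast genes (-0.79 and -0.61). Higher were 10 and 9 of 10 endothelial genes (4.31 and 3.82), 8 and 8 of 10 epithelial genes and 8 and 8 of 9 immune genes (3.12 and 3.20). Over all genes 22.1% and 17.2% were higher and 19.2% and 14.8% lower. Without the 2 libraries highest in endothelial genes, 10 and 3 of the endothelial genes were higher (3.79 and 2.08), beside 7 and 7 epithelial and 8 and 8 immune genes. The part of these changes in the marker levels was not tested, and nothing in the marker levels is shown to be particular to them.

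**Figure D5:**
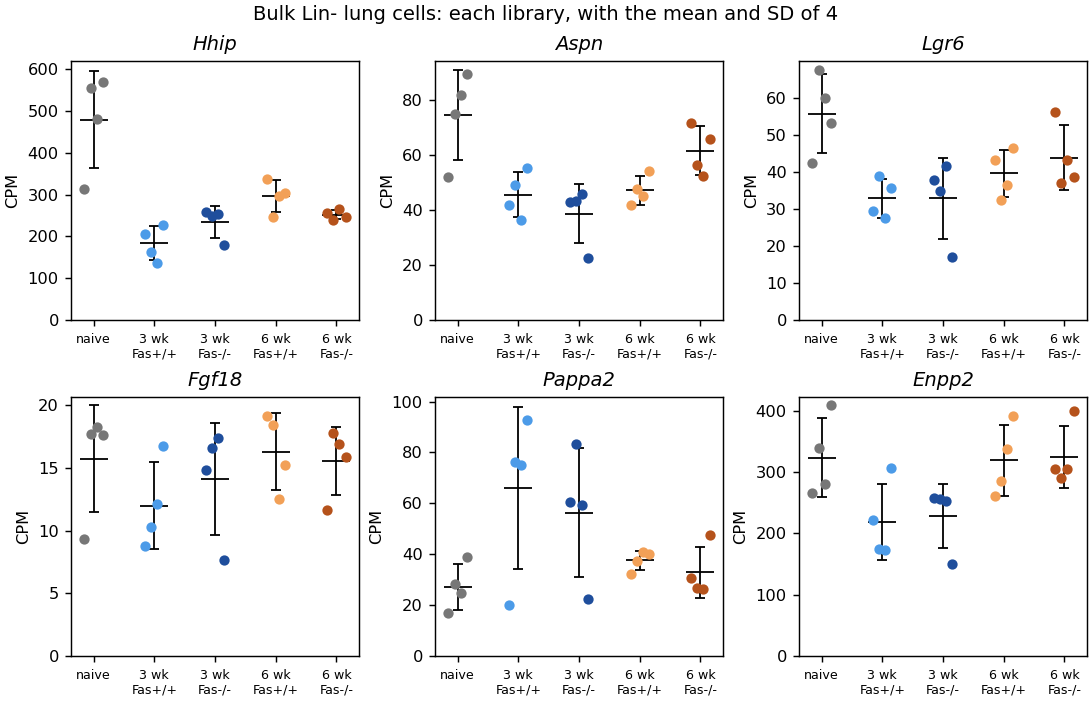
Bulk CPM of Hhip, Aspn, Lgr6, Fgf18, Pappa2 and Enpp2 in the 5 groups; points are libraries (4 per group), and the bar with its error bar is the mean and SD. All 3-week and 6-week Fas-/- points of Hhip lie below the lowest naive point (314 CPM), and Pappa2 reaches its highest points at 3 weeks.

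Of 12 further genes associated with ductal myofibroblasts, 6 and 6 were lower and 1 and 0 higher in bulk at 3 weeks in Fas+/+ and Fas-/-, where 19.2% and 14.8% of all genes were lower. At 6 weeks 3 and 2 were lower and none higher, where 1.74% and 2.81% of all genes were lower. Cdh4 stood at 45.4, 74.3, 61.2 and 73.3 CPM in naive, 26, 18.9, 15.1 and 22.9 in 3-week Fas+/+ and 29.6, 26.6, 31.3 and 28 in 3-week Fas-/-, and at 29.99 to 36.7 and 21 to 31.6 at 6 weeks. No bleomycin library reached the lowest naive library, and the log2 fold changes were -1.61, -1.14, -0.93 and -1.18 (adjusted p = 3.11e-06, 0.000115, 0.00243 and 0.000565). Tgfbi averaged 188 ± 46.6 CPM in naive and 92.6 ± 13.6, 70.5 ± 20.1, 94.8 ± 14.4 and 87.2 ± 12.5 in the bleomycin groups, and was lower in all 4 (adjusted p = 0.00103, 0.000141, 0.00891 and 0.00463). Mustn1 was lower at 3 weeks (-1.04 and -0.97). Lum, P2ry14 and Wnt5a passed in no comparison.

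Of 16 hedgehog pathway genes, Hhip included, 10 and 7 were lower and 4 and 4 higher in bulk at 3 weeks in Fas+/+ and Fas-/-, beside 19.2% and 14.8% of all genes lower and 22.1% and 17.2% higher. Ptch1 averaged 436 ± 47.4 CPM in naive and 282 ± 31.5 and 297 ± 45.6 at 3 weeks (-0.63 and -0.55, adjusted p = 0.011 and 0.029, the second lost in 5 of 14 alternatives, each without 1 replicate), and 368 ± 20.9 and 340 ± 132 at 6 weeks. The coreceptors Boc (-0.84 and -0.56) and Gas1 (-0.97 and -0.86) were lower at 3 weeks, and Gli1 in 3-week Fas+/+ alone (-0.39, adjusted p = 0.0246, lost in 6 of 14 alternatives, highest adjusted p = 0.0887). Foxf1 was among those higher, at 1.83 and 1.53, with 700 CPM in 3-week Fas+/+ replicate 1 and 733 CPM in 3-week Fas-/- replicate 4 and 135 to 279 CPM in the other 3-week libraries. Those 2 libraries were also the highest in 10 endothelial genes, summing to 8901 and 8286 CPM against 154 to 3147 CPM in the other 18, and Foxf1 is known from endothelium too. The part of endothelial RNA in the Foxf1 change was not tested, and without these 2 libraries or without 3-week Fas-/- replicate 4 alone the Foxf1 call in 3-week Fas-/- was lost (highest adjusted p over its alternatives 0.281). Without these 2 libraries, an alternative added after the data were seen, the marker calls at 3 weeks stayed at 4 lower and 1 higher in Fas+/+ and 3 lower and 1 higher in Fas-/-. Red-cell genes summed to 2977 to 9582 CPM in naive and 17.1 to 235 CPM elsewhere, so they moved with bleomycin as well, and their part was not tested. The ligand gene Shh was barely detected, at 0.0108 CPM on average in naive and 0.235 to 0.695 CPM in the bleomycin groups.

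Genes with higher levels in marker-high cells after bleomycin had their own courses in bulk. Sfrp1 averaged 93.1 ± 17 CPM in naive, 563 ± 321 and 480 ± 121 at 3 weeks, and 183 ± 34.9 and 284 ± 63.8 at 6 weeks (log2 fold changes of 2.60, 2.36, 0.98 and 1.61, adjusted p = 0.000105, 0.000381, 0.166 and 0.0204). The call in 6-week Fas-/- was lost without naive replicate 1 or 2 (highest adjusted p = 0.0673). Fst was higher at 3 weeks (2.43 and 2.20, adjusted p = 0.0013 and 0.00379), and its log2 fold changes at 6 weeks, -0.12 and 0.38, did not pass. In the whole sorted population both genes had their highest means at 3 weeks, while in marker-high Hhip cells Sfrp1 was highest in the 6-week libraries, with a UMI in 29.7% and 35.1% of thinned cells at 3 weeks and 51.6% and 49.5% at 6 weeks. For Fst the 6-week level in marker-high cells came from few cells (209 UMIs in 15 cells of Fas+/+ and 263 in 23 cells of Fas-/-), and its thinned shares were 8.79% and 12.3% at 3 weeks and 14.1% and 14% at 6 weeks.

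No gene typical of Hhip cells passed the test between Fas-/- and Fas+/+ in bulk. Among all genes 0.171% passed between Fas-/- and Fas+/+ at 3 weeks (26 higher and 1 lower) and 0.0507% at 6 weeks (4 and 4). These counts over all genes depended on single libraries. Without the 2 libraries highest in endothelial genes 406 were higher and 196 lower at 3 weeks and 114 and 106 at 6 weeks. At 3 weeks 281 were higher and 301 lower without Fas-/- replicate 4, 185 and 34 without Fas+/+ replicate 1, and none without Fas+/+ replicate 2 or 3. None of the 10 typical genes was called in any of these fits. Of the 13 genes 0 passed at either time (1 and 0 with an unadjusted p under 0.05), with the lowest adjusted p at 0.564 for Crispld1 and 0.684 for Aspn (edgeR). DESeq2 also called 0 of the 10 typical genes at each time. For Hhip the log2 difference was 0.35 (adjusted p = 0.615) at 3 weeks and -0.23 (adjusted p = 0.874) at 6 weeks. The change of the genotype difference from 3 to 6 weeks for Hhip was -0.59 ± 0.25 (adjusted p = 0.595), in a test that 0.00634% of all genes passed. Beside these values, Hhip cells made up 10.7% of kept cells in the 6-week Fas-/- single-cell library and 5.52% in the Fas+/+ library, 1 library each, and Hhip over all kept cells stood at 213 and 170 CPM.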

How the data were processed

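The authors aligned bulk reads to GRCm38 with HISAT2 and deposited HTSeq read counts per gene for 20 libraries; for 5 single-cell libraries they deposited Cell Ranger (3.0.2 in the file headers) filtered UMI counts for 31053 features. HISAT2 and HTSeq versions were not given in the sources used here. The deposited normalised bulk table was not used.

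Members and gene lists were chosen with earlier results of these data known. Cells were kept, and members, Myh11 cells (Myh11 at least 5 UMIs), Cthrc1 cells (Cthrc1 at least 5) and Npnt cells (Npnt at least 5, Tcf21 at least 1), the last 3 with Hhip under 2, were chosen by fixed counts. UMIs were summed per library and cell group (at least 10 cells) and tested with edgeR 4.0.16 in R 4.3.3 (TMM, filterByExpr, quasi-likelihood F test, library as a block, Benjamini-Hochberg over all genes tested, threshold 0.05). Bulk counts were tested likewise over all 20 libraries with no block. The study's own tool, DESeq2 (1.42.0), was an alternative. Between single-cell conditions (1 library each) log2 ratios of CPM with a pseudocount of 1 UMI were computed for genes with at least 50 UMIs in the 2 sums. Genes were named by fixed rules: the marker list and up to 8 genes per list; the 10 higher and 5 lower genes with the largest changes between cell groups at 20 or more CPM and with 1 direction in every library; and the 5 highest and 5 lowest ratios between conditions. Where a gene was at 0 in the other group, levels and no fold are given. Intervals are at 95%. Scripts were tested on simulated data. Scrublet (scanpy 1.11.5) called 46 of 12059 cells (0.381%) and 0 members as doublets; at under 0.5% the caller is taken not to have worked, so no doublets were removed. No column of per-sample values was left without a sample.

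Replicate numbers are shared between bulk groups in the labels; correlations of same-numbered libraries' deviations ran from -0.4 to 0.403 and were not all above 0.1 in any comparison, so the numbers were not taken to pair the libraries. Some items are not reported here.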

Additional observations from a re-analysis of the deposited data

Results flagged for a closer look

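In 6 of 65 tests (13 genes in each of the 5 bulk groups of 4 libraries), 1 library stood apart from the other 3 by Dixon's criterion, which chance meets in about 1 of 20 tests. The tests of different genes share libraries. Of the 6 values, 4 are in 3-week Fas-/- replicate 4. In it Hhip was at 178 CPM (248 to 259 in the other 3), Aspn at 22.6 CPM (42.8 to 45.8), Enpp2 at 150 CPM (252 to 257) and Wif1 at 3.41 CPM (9.71 to 10.1). The same library had endothelial genes summing to 8286 CPM, and the part of that in its low marker values was not tested. Fgf18 was at 9.34 CPM in naive replicate 1 (17.6 to 18.3 in the other 3), and Enpp2 at 400.3 CPM in 6-week Fas-/- replicate 4 (290 to 306).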

How the results depend on the processing

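Shares of Hhip cells moved with the threshold and denominator. At 3 or more Hhip UMIs they were 11.4 and 8.70% in Fas+/+ and Fas-/- at 3 weeks and 7.72 and 13.96% at 6 weeks; at 8 or more they were 5.48, 3.41, 4.10 and 6.49%; thinned, the 3-week values were 8.64 and 8.62%; among Col1a2-positive cells they were 10.8, 6.99, 13.1 and 14.7%. Thinning left 2138 genes called against Myh11 cells (4477 before) and 1096 against Cthrc1 cells (3223 before), with fewer UMIs per sum by construction. Leaving out 1 library at a time gave 3390 to 4462, 1651 to 3407 and 1378 to 1686 genes against Myh11, Cthrc1 and Npnt cells. Counts of genes past 2-fold between conditions (genotype at 3 and 6 weeks, then 3-week Fas+/+, 3-week Fas-/-, 6-week Fas+/+ and 6-week Fas-/- against naive) were 376, 334, 1109, 943, 1545 and 1913 with at least 20 UMIs and 46, 68, 225, 193, 295 and 530 after thinning; in marker-high members alone, added after seeing the data, those against naive were 169, 149, 275 and 451.

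In bulk, of the 10 typical genes, 5, 4, 2 and 2 passed against naive. Leaving out 1 replicate at a time gave 4 to 6, 3 to 4, 0 to 2 and 1 to 2, and 0 to 0 for genotype at both times. For 6-week Fas+/+ 1 gene passed with no filter on low counts and 1 with the 2 compared groups alone, and for 6-week Fas-/- 1 with the 2 compared groups alone. With replicate number as a block, these 6-week counts were 0 and 1 and the Hhip call in 6-week Fas+/+ was lost (adjusted p = 0.0541); over all genes the block moved genotype calls from 27 to 45 at 3 weeks and from 8 to 0 at 6 weeks, although the numbers are not known to pair the libraries. DESeq2 called 143 genes higher and 24 lower between genotypes at 3 weeks and 50 and 120 at 6 weeks over all genes.

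Log2 fold changes that changed sign were uncalled: Fgf18 in 3-week Fas-/- against naive (0.042) and Lgr6 between genotypes at 3 weeks (0.16) without the 2 endothelial-high libraries, and Enpp2 in 6-week Fas-/- against naive (-0.0030 with RLE size factors and with DESeq2). Leaving out 1 replicate at a time, Fgf18 ran from -0.36 to 0.037, -0.14 to 0.16 and -0.21 to 0.10 against naive (3-week Fas-/-, then both 6-week groups) and -0.18 to 0.046 between genotypes at 6 weeks; Enpp2 from -0.14 to 0.11 and -0.11 to 0.14 in the 6-week groups and -0.031 to 0.27 and -0.088 to 0.14 between genotypes at 3 and 6 weeks; and between genotypes at 3 weeks Lgr6 from -0.14 to 0.22 and Pappa2 from -0.53 to 0.035. The cause was not tested. Hhip kept its direction and its call under all 14 alternatives in both 3-week groups and in 6-week Fas-/- (highest adjusted p = 0.00202, 0.00614 and 0.0191). Few UMIs per library limit marker-high comparisons, and the naive library, with 603 kept cells, limits every comparison with it.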

Other observations

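By the fixed rule of largest ratios, the genes lowest in Fas-/- against Fas+/+ over all Hhip cells at 3 weeks were Ccl2, Cxcl9, Ccl7, Cxcl13 and Saa3, in few cells. Ccl2, a monocyte chemoattractant, was at 1.84 CPM in Fas-/- and 91.7 in Fas+/+ (2 and 225 UMIs, in 2 and 13 cells), and Ccl7 at 0.921 and 53.0. The B cell attractant Cxcl13 was at 2.76 and 83.9, and Saa3, an acute-phase serum amyloid A protein, at 46.1 and 810 (in 5 and 27 cells). In marker-high members alone Saa3 was higher in Fas-/- (111 and 15.1 CPM, in 2 and 9 cells). Cxcl9, an interferon-induced chemokine, was at 1.84 and 82.3, with the 202 UMIs in Fas+/+ from 2 cells. Higher in Fas-/- were Rspo3, a secreted R-spondin (47.9 and 4.07, in 11 and 9 cells), and Cpm, a carboxypeptidase (134 and 19.96, in 25 and 17 cells). At 6 weeks Il6, an inflammatory cytokine, was at 23.5 in Fas-/- and 88.5 in Fas+/+ (in 34 and 31 cells), and Saa1 at 11.2 and 0.625 (in 6 and 2 cells). These are ratios between 1 library of each genotype, with no test.

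Saa3 and Lcn2, a siderophore-binding acute-phase protein, belonged to the alveolar-high side, at 761 and 437 CPM against 24.1 and 12.3 in marker-high members, and each was higher there in 3 of 5 libraries. Hp, haptoglobin, was at 701 against 9.88 and higher in 4 of 5 libraries. The Wnt antagonist Wif1 had a different order among libraries on the 2 sides: 89.6, 85.4, 71.5, 216 and 157 in marker-high members and 187, 54.3, 17.6, 63.5 and 19.1 in alveolar-high members, of which naive had 9 (naive, 3-week Fas+/+, 3-week Fas-/-, 6-week Fas+/+ and 6-week Fas-/-).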
